A study of Mus musculus with 6 samples.

Results

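The collagen chain genes were the rows of the count table whose symbol gives a collagen type and a chain number and that held at least 10 counts in at least 3 of 6 libraries. There were 42 such genes among 43 collagen chain genes in a table of 24348 genes. Col9a1 was left out, with 0, 2 and 7 counts in the IC libraries and 9, 0 and 1 in the vehicle libraries. RNA of fibroblasts sorted from mouse synovium, the tissue that lines the joint, was sequenced after immune complexes (IC) or a control injection. All mice were adult wild-type animals, C57BL/6 by the labels and of C57BL/6J background by the study's methods, and both groups had the same dissection of the whole synovium, the same collagenase digestion and the same sort. The 3 IC libraries came from mice given ovalbumin bound by rabbit antibodies against ovalbumin into a vein, and the 3 vehicle libraries from mice given the control injection. The time between injection and dissection, the markers of the sort and the number of mice behind a library are not given in the sources used here for these samples, so p-values measure the spread between these libraries, which may in part be technical.

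Collagens are secreted proteins in which chains wind around each other into a triple helix, with the small residue glycine opening each triplet of the helical part. Fibrillar collagens I, III and V form the cables of the interstitial matrix, collagen IV forms the net of basement membranes, collagen VI forms beaded filaments around cells, and fibril-associated collagens sit on the surface of fibrils. Fibroblasts make most of the collagen of the synovial sublining, and chains of one molecule are encoded by separate genes that have to be supplied together.

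The coding sequences carried the feature that defines the family. Glycine codons begin with GG, and in the longest protein-coding transcript of each of the 42 genes (GENCODE M21, build GRCm38) codons of the form GGN were counted at every triplet start. The 11 fibrillar members had the longest unbroken runs, from 216 to 344 triplets, and the longest run outside them was 113 triplets. The following stretches of 54 bases, from the coding strand, are shown for the abundant Col1a1 and for the 6 genes that passed the test described below, with the GGN codon that opens each triplet in capitals.

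Col1a1, exon 8, chr11:94939904-94939957, plus strand: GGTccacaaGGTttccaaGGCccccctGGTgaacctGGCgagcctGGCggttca
Col3a1, exon 6, chr1:45325360-45325413, plus strand: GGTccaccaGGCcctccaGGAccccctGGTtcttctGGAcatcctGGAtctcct
Col12a1, exon 57, chr9:79612916-79612969, minus strand: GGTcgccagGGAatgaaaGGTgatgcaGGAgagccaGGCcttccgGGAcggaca
Col6a6, exon 13, chr9:105760051-105760104, minus strand: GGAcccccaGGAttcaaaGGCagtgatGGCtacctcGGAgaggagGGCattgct
Col4a5, exon 44, chrX:141666850-141666903, plus strand: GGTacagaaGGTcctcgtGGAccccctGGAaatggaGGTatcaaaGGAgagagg
Col4a4, exon 29, chr1:82491526-82491579, minus strand: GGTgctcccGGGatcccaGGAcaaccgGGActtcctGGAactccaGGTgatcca
Col15a1, exon 13, chr4:47270324-47270377, plus strand: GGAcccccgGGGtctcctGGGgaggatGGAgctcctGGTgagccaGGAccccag

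The stretches were taken from inside the longest run of each gene and start on a GGN codon, so GGN opens all triplets by this choice. The runs that hold them differed in length, with 338 triplets in Col1a1, 344 in Col3a1, 45 in Col4a4, 42 in Col4a5, 42 in Col6a6, 32 in Col12a1 and 30 in Col15a1. The helix of fibril-associated and basement membrane chains is interrupted, and the called genes of these classes held from 5 separate runs of at least 5 triplets in Col12a1 to 27 in Col4a4.

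The libraries held 40114331 to 56714304 counts. Fibroblast markers were high in all of them, with 7 markers summing to 9758 to 10864 CPM (counts scaled to a common library total) after IC and 10429 to 11636 CPM with vehicle. Markers of other cells were present at lower levels and some moved with the treatment. Endothelial markers summed to 71.2 to 115 CPM after IC and 126 to 168 CPM with vehicle, mural markers to 482 to 588 and 591 to 631 CPM, satellite cell markers to 34.0 to 65.7 and 78.8 to 125 CPM, and tenocyte markers to 1817 to 2308 and 1054 to 1638 CPM. Osteoblast markers summed to 32.7 to 48.8 CPM after IC and 49.9 to 64.7 CPM with vehicle, and skeletal muscle markers, 6 of 6 tested lower and 1 called, to 13.0 to 26.0 and 21.6 to 49.7 CPM. Among the fibroblasts themselves, 6 lining markers summed to 754 to 867 CPM after IC and 543 to 690 CPM with vehicle, with 1 called higher and 2 called lower, and 6 sublining markers to 2822 to 3286 and 2993 to 3450 CPM with none called. The part of these shifts in the collagen values was not tested. Macrophage markers summed to 31.1 to 47.3 CPM after IC and 37.6 to 49.1 CPM with vehicle, over the 4 of 6 listed that were in the table. Vehicle replicate 1 stood apart from the other libraries. The RNA gene Gm42418, named after its values were seen, took 0.964% of its counts, against 0.375% to 0.553% in the other 5 libraries. The 10 collagen genes with the highest levels per kb all had their lowest vehicle value in it, and over all 42 members 22 did. The share of all tested genes with their lowest vehicle value in this library is not given here. This library was thus set apart partly by the collagen values, so results without it are a description and not separate support. The calls of collagen genes and of the collagen pathway lists are given with and without it.

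**Figure D1:**
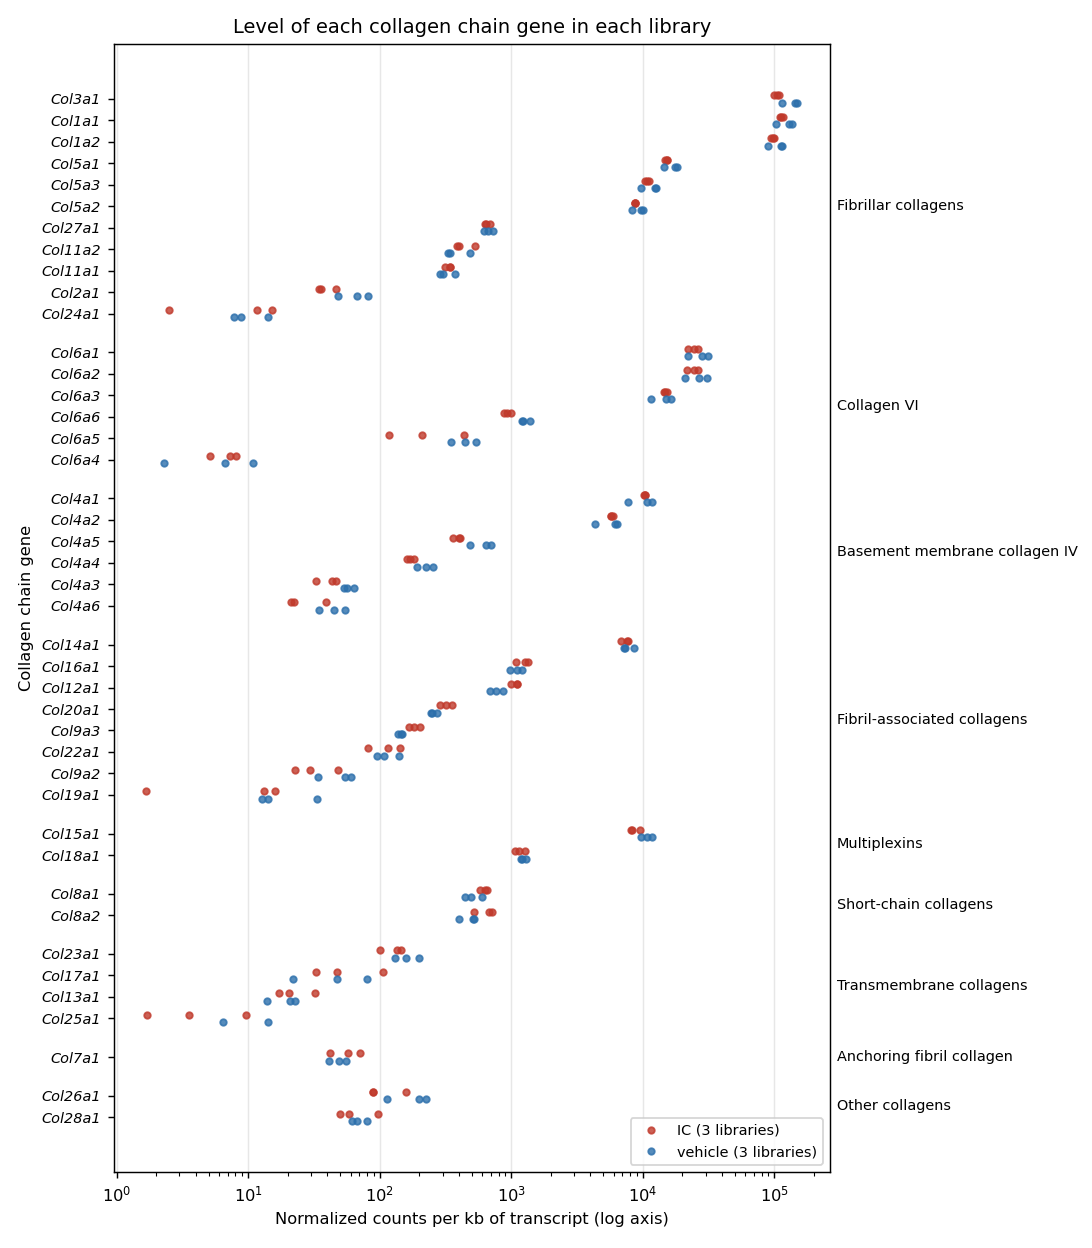
Level of each of the 42 collagen chain genes in each library, as normalized counts per kb of transcript on a log axis, with 1 point per library for the 3 IC and 3 vehicle libraries. Col25a1 in vehicle replicate 3 had 0 counts and has no point. Col3a1, Col1a1 and Col1a2 are the highest, with means of 119649, 117390 and 101297 counts per kb, and the levels span 20249-fold from the highest gene to the lowest.

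Levels were compared between genes as normalized counts per kb of the longest coding transcript, averaged over the 6 libraries. Col3a1 stood at 119649 counts per kb, Col1a1 at 117390 and Col1a2 at 101297, the chains of collagens III and I. The order of the first pair depended on the group. Col3a1 stood at 104287, 99009 and 109035 counts per kb in the IC libraries and at 113572, 149575 and 142416 in the vehicle libraries. Col1a1 stood at 110541, 111776 and 115461 after IC and at 102392, 135556 and 128613 with vehicle. Within each library, Col3a1 was below Col1a1 in all 3 IC libraries and above it in all 3 vehicle libraries, an order that was seen in the values and not tested. Collagen VI followed, with Col6a1 at 25822 and Col6a2 at 25175 per kb, then Col5a1 at 15943, Col6a3 at 14599, Col5a3 at 11184, Col4a1 at 10199 and Col15a1 at 9709. Col1a1, Col1a2 and Col3a1 together took 68.4% of all collagen counts, and the 10 genes with the highest levels took 92.6%. At the other end, 5 members had a mean normalized count under 100, and Col25a1, a transmembrane collagen, was lowest at 5.91 counts per kb.

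By class, the 11 fibrillar genes held 77.0% to 79.2% of collagen counts in every library, the 6 collagen VI genes 12.3% to 14.0%, and the 6 collagen IV genes 3.41% to 4.34%. Collagen chain genes took 5.42%, 5.43% and 5.54% of all counts in the IC libraries, and 5.34%, 6.61% and 6.35% in the vehicle libraries. The groups overlapped through vehicle replicate 1, while vehicle replicates 2 and 3 were above all IC libraries. The 95% Wilson interval was 5.41% to 5.43% for IC replicate 1 and 5.33% to 5.34% for vehicle replicate 1, and it covers counting error only. No test was made of this sum.

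Of the 42 members, 6 passed an adjusted p of 0.05 in the DESeq2 Wald test (14.3%), against 2.10% of the 19925 genes tested. Col12a1 rose, and Col4a5, Col6a6, Col3a1, Col15a1 and Col4a4 fell. In the higher direction this was 1 member against a background of 1.03%, and in the lower direction 5 members against 1.07%. Collagen genes were more abundant than most, and the background among genes whose mean normalized count reached 100 was 2.95%. The edgeR quasi-likelihood test called no member, with a lowest adjusted p of 0.0585, and 0.186% of all genes. At an unadjusted p under 0.05, edgeR held 15 members (background 9.64%) and DESeq2 14 (background 9.80%). The changes were moderate. The called genes moved by 0.31 to 0.65 on the log2 scale, no member by more than 1, and the median log2 fold change of the members was −0.09 beside −0.0019 for all tested genes.

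**Figure D2:**
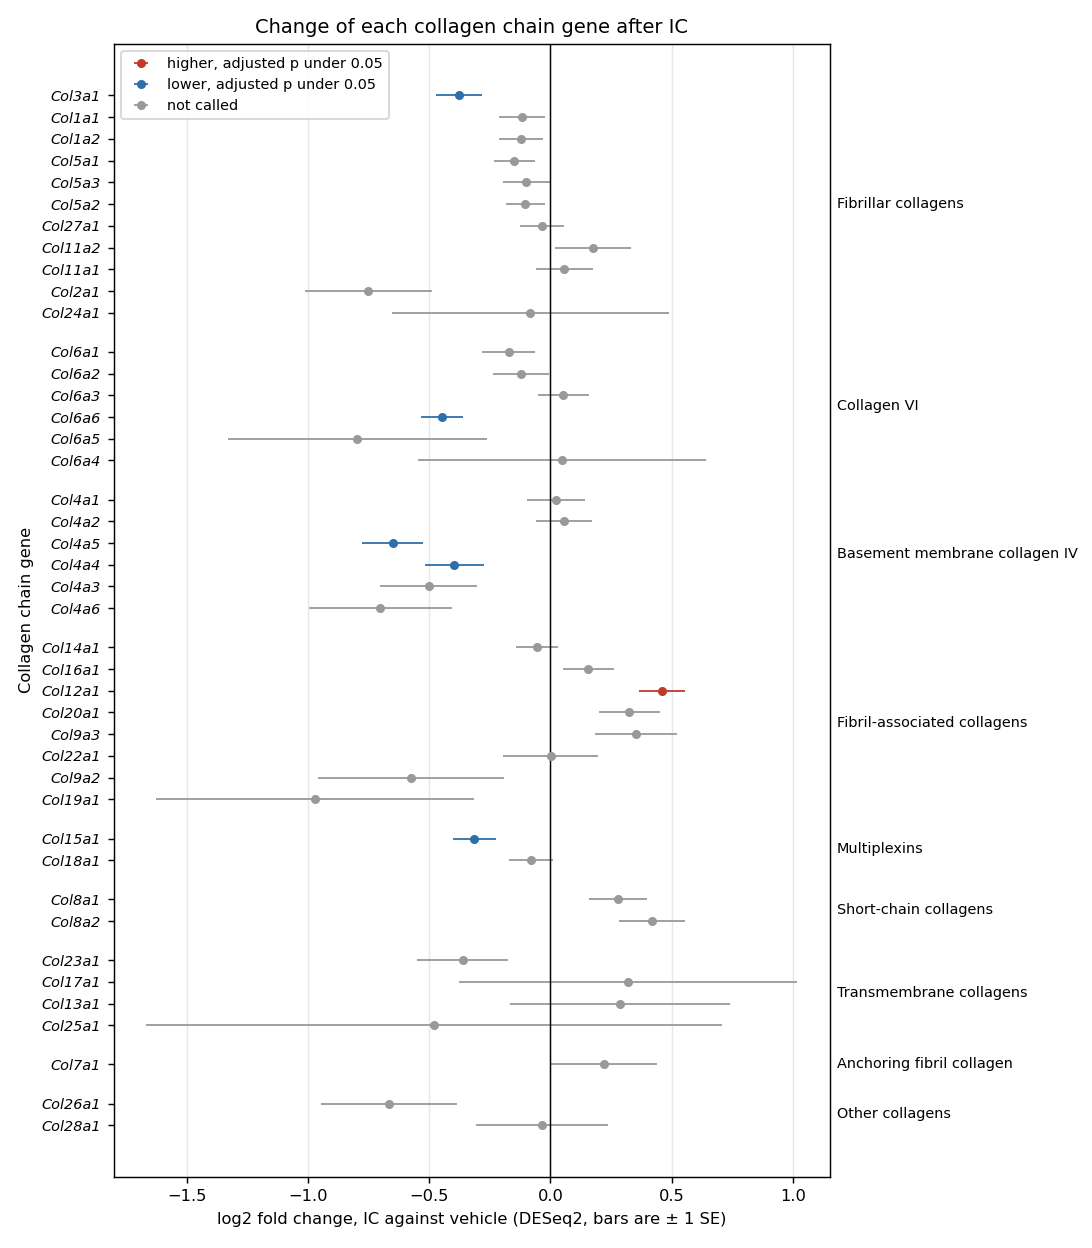
Log2 fold change of IC against vehicle for each collagen chain gene with its standard error, from DESeq2, grouped by structural class, with genes past an adjusted p of 0.05 marked. The 6 marked genes lie between −0.65 and 0.46, and the widest bars belong to genes with few counts.

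The normalized counts of 11 members did not overlap between the groups (26.2%), against 15.8% of all tested genes. They were 4 members with higher IC values (Col12a1, Col8a2, Col20a1 and Col9a3; background 8.09%) and 7 with lower IC values (Col3a1, Col15a1, Col6a6, Col4a5, Col4a4, Col2a1 and Col4a3; background 7.67%). Col8a2, Col20a1, Col9a3, Col2a1 and Col4a3 were among them but did not pass the test.

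The fibrillar genes, which build the cables of the matrix, had 1 called member of 11 and a median log2 fold change of −0.10, with 9 below 0. Col3a1 (chr1:45311538-45349706, plus strand), the only chain of collagen III, had normalized counts of 580251, 550884 and 606669 after IC and 631916, 832237 and 792405 with vehicle. All IC libraries were below all vehicle libraries, and vehicle replicate 1 was the nearest to them. The means were 579268 ± 27905 and 752186 ± 106044 (SD, n = 3 each). The log2 fold change was −0.38 ± 0.096 (SE; adjusted p = 0.00679 in DESeq2 and 0.177 in edgeR). The call held in 2 of 6 fits that each left out 1 library, those without IC replicate 3 (0.0184) and without vehicle replicate 1 (4.4e-10), and was lost when IC replicate 1 (0.0708) or 2 (0.115) or vehicle replicate 2 (0.159) or 3 (0.192) was left out. It was also lost with 1 surrogate variable (0.0618, log2 fold change −0.30), an estimated hidden batch term from sva, which the study's methods name, and in limma-voom (0.135). Values are adjusted p from DESeq2 unless limma-voom is named.

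Collagen I, the main protein of the fibril, did not pass the test. Col1a1 had 655507, 662833 and 684684 normalized counts after IC and 607185, 803847 and 762673 with vehicle. The groups overlapped because vehicle replicate 1 was below all IC libraries. Its log2 fold change was −0.12 ± 0.095 (DESeq2 adjusted p = 0.754), with a 95% interval of −0.30 to 0.07. Its partner chain Col1a2 had 504496, 533361 and 519296 after IC and 478026, 615911 and 599332 with vehicle, with the same order of the vehicle libraries and a log2 fold change of −0.12. Among the collagen V chains, which sit inside the fibril and set its width, the log2 fold change was −0.15 for Col5a1 (adjusted p = 0.554), −0.10 for Col5a2 (0.744) and −0.10 for Col5a3 (0.836), all by DESeq2. Col11a1 at 0.06 and Col11a2 at 0.18 were the fibrillar members above 0. Col2a1, the cartilage chain, had 238, 184 and 177 normalized counts after IC and 418, 246 and 342 with vehicle, a log2 fold change of −0.75 ± 0.261 with a DESeq2 adjusted p of 0.107. It passed with 1 surrogate variable (0.0222, log2 fold change −0.90) and without vehicle replicate 2 (0.0206). Chondrocyte markers summed to 49.6 to 53.1 CPM after IC and 42.4 to 54.5 CPM with vehicle. Of the 5 tested, 4 were lower with none called, and 1 was higher and called. Matn3 was at 0 in a library, and the part of chondrocyte RNA in the value of Col2a1 was not tested.

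Without vehicle replicate 1, the fibrillar picture differed. This library held the lowest vehicle value of every collagen I, III and V gene, so leaving it out makes their fold changes more negative by itself. DESeq2 then called 13 members, against 3.37% of all tested genes. They were 2 higher (background 1.65%) and 11 lower (background 1.72%). The 6 genes called with all libraries were among them. The others were Col1a1 (log2 fold change −0.23, adjusted p = 0.00827), Col1a2 (−0.23, 0.00816), Col5a1 (−0.24, 0.00433), Col5a2 (−0.18, 0.0491), Col5a3 (−0.21, 0.0213) and Col6a1 (−0.30, 0.0215), all lower, and Col8a1 (0.41, 0.00843), which was higher. In edgeR without this library 3 members passed, Col3a1 (adjusted p = 0.00939), Col4a5 (0.00492) and Col6a6 (0.0473), all lower, against 0.326% of all tested genes lower by this test. Leaving out any of the other 5 libraries gave no edgeR call among the members.

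The promoter of Col3a1, one of the most abundant chains and one of the called genes, is shown because it sets the fibrillar gene that fell beside the motifs counted over the family. It is the 250 bases before the RefSeq start site (GRCm38.p6, chr1:45311288-45311537, plus strand), with the TATAAA match in capitals.

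Col3a1 promoter: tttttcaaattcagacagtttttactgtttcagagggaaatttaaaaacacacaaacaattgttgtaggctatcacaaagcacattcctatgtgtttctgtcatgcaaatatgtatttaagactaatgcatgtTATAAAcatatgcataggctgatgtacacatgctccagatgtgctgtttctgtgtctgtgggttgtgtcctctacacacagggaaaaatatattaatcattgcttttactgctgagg

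The window held TATAAA at position −117, counted from the start site, and neither CCAAT nor GGGCGG on either strand. Windows were in the RefSeq table for 33 members, with 35 windows in all. Of these 35, 12 held CCAAT, 22 held GGGCGG and 4 held TATAAA on either strand, and the shares over all 32851 promoters of the table were 33.8%, 32.7% and 12.4%. A match of letters is a description only.

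**Figure D3:**
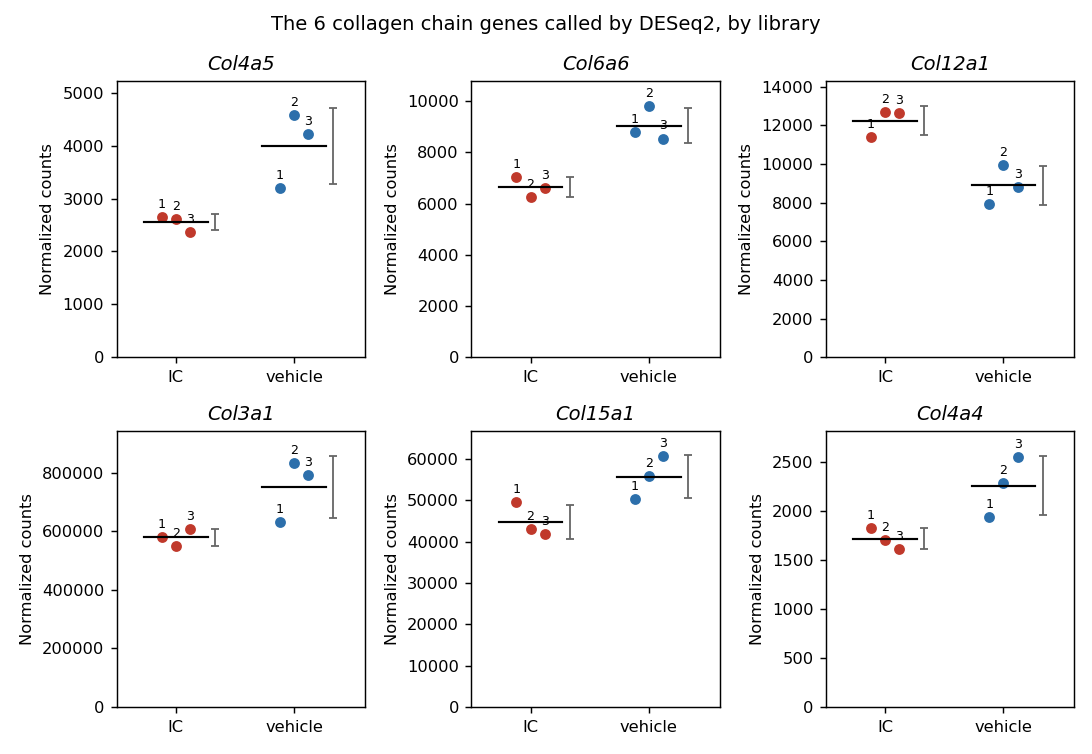
Normalized counts of the 6 called collagen genes in each library, 1 panel per gene with axes that start at 0, numbered points for libraries, lines for group means and bars for SD. Col12a1 is higher in all IC libraries and the other 5 genes are lower in all of them, with vehicle replicate 1 nearest to the IC values for the lower genes other than Col6a6.

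Collagen IV, the net of basement membranes, had 2 called members of 6, both lower, and a median log2 fold change of −0.45. Col4a5 (chrX:141475385-141689234, plus strand), a chain of the basement membranes of kidney, skin and smooth muscle, had 2659, 2613 and 2375 normalized counts after IC and 3199, 4580 and 4224 with vehicle. Every IC library was below every vehicle library. The means were 2549 ± 153 and 4001 ± 717 (SD, n = 3 each), and the log2 fold change of −0.65 ± 0.126 meant that the level fell by 36.3% (DESeq2 adjusted p = 6.67e-05, edgeR 0.0602). The DESeq2 call held in all 6 fits without 1 library, with adjusted p from 9.84e-13 to 0.016. Col4a4 (chr1:82448423-82586849, minus strand), which forms a trimer with the chains of Col4a3 and Col4a5, had 1834, 1703 and 1619 after IC and 1945, 2290 and 2552 with vehicle. Its groups did not overlap, but IC replicate 1 and vehicle replicate 1 were closer to each other than the highest and lowest IC libraries were. The log2 fold change was −0.40 ± 0.122, with a DESeq2 adjusted p of 0.0468, just inside the threshold, and an edgeR adjusted p of 0.197. The call held only without vehicle replicate 1 (0.00135) among the 6 fits without 1 library, with DESeq2 adjusted p from 0.0781 to 0.380 in the other 5, and was also lost with independent filtering off (0.0561). Adding 1 surrogate variable (0.145) or a block for the replicate number (0.186) ended it too, as did limma-voom (0.203).

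Col4a3, whose start site lies 72 bases from that of Col4a4 on the opposite strand, had 374, 397 and 280 normalized counts after IC and 542, 482 and 461 with vehicle. Its groups did not overlap, but the log2 fold change of −0.50 ± 0.199 did not pass (DESeq2 adjusted p = 0.204). Its exons share 563 bases with C430014B12Rik on the opposite strand, and since the use of strand in counting is not stated, its value is uncertain. Col4a6, which starts 1309 bases from Col4a5, had 258, 141 and 148 after IC and 298, 228 and 362 with vehicle, a log2 fold change of −0.70 ± 0.296 with a DESeq2 adjusted p of 0.261. The chains of the common molecule of all basement membranes, Col4a1 and Col4a2, were near 0 on the log2 scale, at 0.02 (adjusted p = 0.982) and 0.06 (0.947), and far more abundant, at 10199 and 5691 counts per kb beside 501 for Col4a5 and 197 for Col4a4.

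Beside these values, 6 of 6 endothelial markers were lower after IC, 2 of them called, as were 5 of 7 mural markers, 1 of them called, and 5 of 5 satellite cell markers, 3 of them called. These cells lie on basement membranes. Directions differed between the other lists. Tested markers of skeletal muscle (6 of 6, 1 called), osteoblasts (4 of 4, none called) and adipocytes (2 of 2, none called) were lower too. Adipocyte markers summed to only 0.32 to 0.72 CPM after IC and 1.05 to 1.37 CPM with vehicle. Most tested markers were higher for Schwann cells (4 of 6, none called), keratinocytes (3 of 4, none called), macrophages (2 of 3, none called) and tenocytes (5 of 6, 2 called). The part of the RNA of any of these cells in the collagen IV values was not tested. In such bulk samples fewer cells of a type and less RNA per cell cannot be told apart.

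Collagen VI, the filament network around cells, had 1 called member of 6, Col6a6, and a median log2 fold change of −0.15. Col6a6 (chr9:105687809-105828160, minus strand), a chain that can take the place of Col6a3 in the trimer, had 7027, 6265 and 6625 normalized counts after IC and 8779, 9811 and 8543 with vehicle. The groups were far apart, and here vehicle replicate 1 lay within the other vehicle libraries. The means were 6639 ± 381 and 9045 ± 675 (SD, n = 3 each), so the level fell by 26.6%, with −0.45 ± 0.087 as the log2 fold change (DESeq2 adjusted p = 6.85e-05, edgeR 0.0585). DESeq2 called it in all 6 fits without 1 library, with adjusted p from 7.84e-05 to 0.00457, and it was the member that limma-voom called (0.0416). Its exons share 63 bases with Gm38314 on the opposite strand.

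The main chains of collagen VI did not pass. Col6a1, at 100257, 91021 and 107397 after IC and 91145, 129381 and 116026 with vehicle, had a log2 fold change of −0.17 (DESeq2 adjusted p = 0.623), Col6a2 of −0.12 (0.835) and Col6a3 of 0.05 (0.942). Col6a5 had the widest spread of the abundant members, with 1954, 1090 and 4065 after IC and 4992, 4103 and 3244 with vehicle. IC replicate 3 lay among the vehicle libraries. Its log2 fold change was −0.80 ± 0.533 (DESeq2 adjusted p = 0.66), and without IC replicate 3 it was −1.43, at an adjusted p of 0.0151. Col6a5 was named after its values were seen.

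The fibril-associated collagens had 1 called member of 8, and with all libraries it was the only collagen gene called higher. Col12a1 (chr9:79598991-79718831, minus strand), a long chain found on fibrils of tendon, ligament and fascia, had 11366, 12683 and 12631 normalized counts after IC and 7918, 9930 and 8808 with vehicle. All IC libraries were above all vehicle libraries. The means were 12227 ± 746 and 8886 ± 1008 (SD, n = 3 each), so the level rose by 37.6%, with 0.46 ± 0.095 as the log2 fold change (DESeq2 adjusted p = 0.000232, edgeR 0.0822). DESeq2 called it in all 6 fits without 1 library, with adjusted p from 2.62e-06 to 0.0166. Tenocyte markers summed to 1817 to 2308 CPM after IC and 1054 to 1638 CPM with vehicle, with 5 of 6 higher, 2 of them called and none at 0 in any library, and their part in the value of Col12a1 was not tested. The 8 genes had a median log2 fold change of 0.08, from −0.97 to 0.46. The most abundant of them, Col14a1, was at −0.05 (DESeq2 adjusted p = 0.925).

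The multiplexins Col15a1 and Col18a1 are basement membrane proteins that carry sugar chains. Col15a1 (chr4:47208161-47313167, plus strand) had 49499, 43054 and 41821 normalized counts after IC and 50300, 55919 and 60688 with vehicle. The highest IC library and the lowest vehicle library were close, though the groups did not overlap. Its means were 44792 ± 4123 and 55636 ± 5200 (SD, n = 3 each), with a log2 fold change of −0.31 ± 0.091 (DESeq2 adjusted p = 0.0283, edgeR 0.247). The call held without IC replicate 1 (0.00597) and without vehicle replicate 1 (0.00149), and was lost when IC replicate 2 (0.221) or 3 (0.203) or vehicle replicate 2 (0.16) or 3 (0.359) was left out, all by DESeq2. It was also lost with the replicate number as a block (0.0961), with 1 surrogate variable (0.0947) and in limma-voom (0.171). The endothelial and mural markers given above moved in the same direction, and their part in this value was not tested. Col18a1 was at −0.08 (adjusted p = 0.874).

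The short-chain collagens Col8a1 and Col8a2, which form hexagonal lattices under endothelia, were above 0 on the log2 scale and did not pass. Col8a2 had 2270, 3083 and 2932 normalized counts after IC and 1733, 2254 and 2209 with vehicle, a log2 fold change of 0.42 ± 0.137 with a DESeq2 adjusted p of 0.0712. It passed with size factors from total counts (0.0458), with the replicate number as a block (0.0182) and without IC replicate 1 (0.0112). Col8a1 had 3231, 3352 and 2951 after IC and 3062, 2263 and 2534 with vehicle, with vehicle replicate 1 among the IC values, and a log2 fold change of 0.28 (adjusted p = 0.273). The 4 transmembrane collagens, the anchoring fibril chain Col7a1, and Col26a1 and Col28a1 had no called member, and their log2 fold changes ran from −0.67 to 0.32. Col25a1 had no adjusted p because of its low counts, and the standard errors of the transmembrane genes reached 1.19.

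Whether chains of the same collagen type moved apart was asked through ratios of normalized counts per kb within each library, 10 in all, with a two-sided exact permutation test of 3 libraries against 3, which cannot give a p below 0.1. The ratio of Col6a3 to Col6a1 was 0.596, 0.67 and 0.579 after IC and 0.522, 0.518 and 0.531 with vehicle. It was the only ratio of the 10 whose groups did not overlap, with a log2 difference of 0.23 and the smallest p possible (0.1, adjusted over the ratios 0.667). Vehicle replicate 1 was close to the other vehicle libraries in this ratio, unlike in the counts themselves. Col1a1 to Col1a2 was 1.17, 1.12 and 1.19 after IC and 1.15, 1.18 and 1.15 with vehicle, a log2 difference of 0.0044. Of the others, Col5a1 to Col5a2 lay between 1.69 and 1.81 and Col4a1 to Col4a2 between 1.74 and 1.87 in all libraries. Col9a3 to Col9a2 varied most, from 3.79 to 7.32 after IC and from 2.27 to 4.37 with vehicle (exact permutation p = 0.2), with Col9a2 resting on 64 to 214 raw counts. The exons of Col9a3 share 234 bases with Tcfl5 on the opposite strand. Since the use of strand in counting is not stated, the value of Col9a3 is uncertain. Col4a5 to Col4a6 ran from 10.5 to 18.9 after IC and from 10.9 to 20.5 with vehicle.

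**Figure D4:**
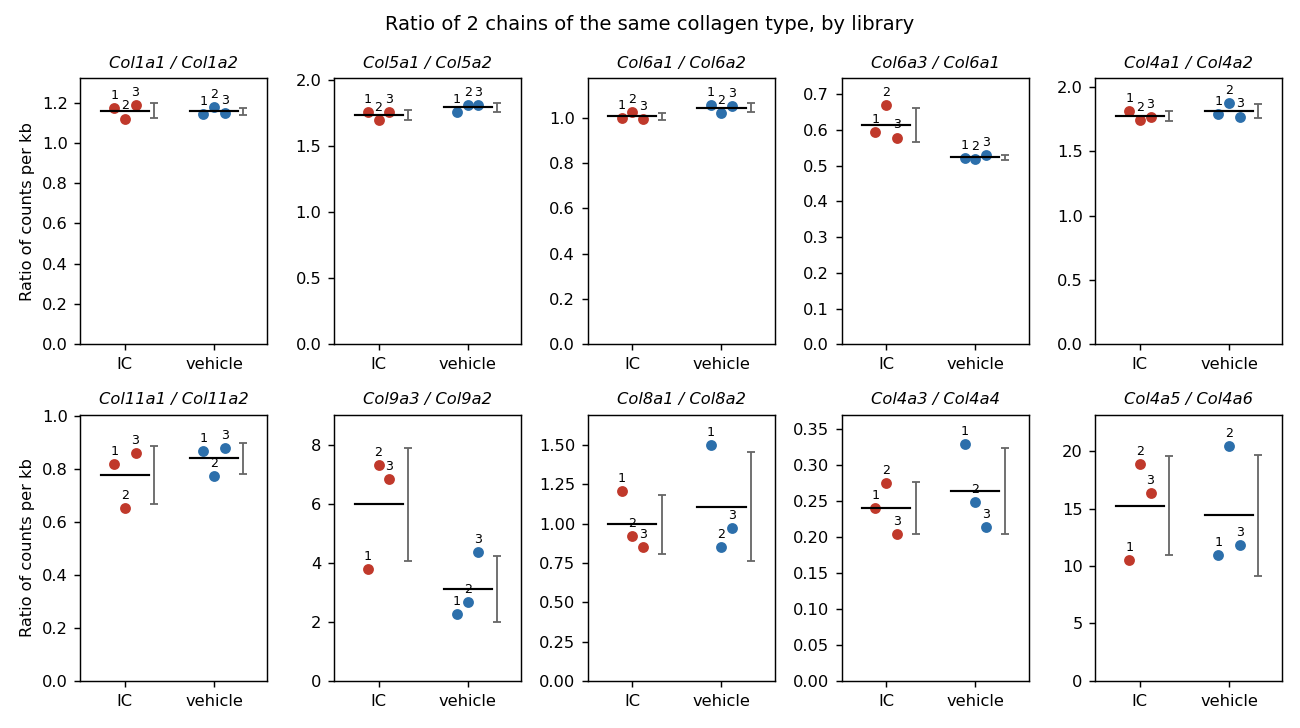
Ratio of the levels per kb of chains of the same collagen type, in each of the 3 IC and 3 vehicle libraries, 1 panel per ratio with axes that start at 0, numbered points for libraries, lines for group means and bars for SD. The ratio of Col6a3 to Col6a1 is higher in every IC library, and the groups overlap in the other 9.

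The proteins that modify, secrete, cut, crosslink and bind collagen were taken as lists of 73 genes, of which 68 were tested. DESeq2 called 14 of them (20.6%, against 2.10% of all tested genes), 7 higher and 7 lower, and edgeR 2. The split depended on the libraries. Without vehicle replicate 1 the count was again 14, with 4 higher and 10 lower, and P3h2 (adjusted p = 0.152), Loxl3 (0.0706) and Itga10 (0.0849) were no longer among the calls. Without IC replicate 3 it was 2 higher and 7 lower, and without IC replicate 2 it was 3 higher and 3 lower. Without vehicle replicate 2 it was 7 higher and 4 lower, and without vehicle replicate 3 it was 5 higher and 3 lower, all by DESeq2. Calls over all tested genes moved too, from 282 to 671 in the DESeq2 fits without 1 library. Of these, 124 to 328 were higher and 127 to 343 lower. The median log2 fold change with all libraries was −0.00065. The lists were chosen by role with earlier results known, and their counts are a description.

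The crosslinking enzymes had 3 of 5 called, all higher. Lox, the lysyl oxidase that starts covalent crosslinks between collagen chains, had 19191, 20363 and 23075 normalized counts after IC and 9123, 12078 and 12234 with vehicle. The groups were well separated, with a log2 fold change of 0.91 ± 0.111 (adjusted p = 8.53e-13 in DESeq2 and 0.0167 in edgeR), and the DESeq2 call held in all 6 fits without 1 library. Its relatives Loxl4 (0.58, DESeq2 adjusted p = 0.0104) and Loxl3 (0.34, 0.0218) also rose, and Loxl1 (0.0070) and Loxl2 (−0.26) did not pass. In the fits without 1 library DESeq2 kept Loxl4 in 3 and Loxl3 in 2 of 6.

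Of 19 genes of chain modification and folding, 3 were called. P4ha3, a catalytic subunit of the prolyl hydroxylase that stabilises the helix, had 671, 668 and 816 after IC and 366, 344 and 332 with vehicle, a log2 fold change of 1.05 ± 0.170 (adjusted p = 3.84e-07 in DESeq2 and 0.0206 in edgeR) that held in all 6 fits without 1 library. P4ha1, its more abundant relative, was at 0.01 (adjusted p = 0.988). P3h2, another prolyl hydroxylase, rose by 0.59 on the log2 scale (DESeq2 adjusted p = 0.0425, called in 1 of 6 fits without 1 library). Colgalt2, which adds galactose to hydroxylysine, fell by 0.54 on that scale (DESeq2 adjusted p = 0.00263, called in 5 of 6). None of 8 secretion genes was called.

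**Figure D5:**
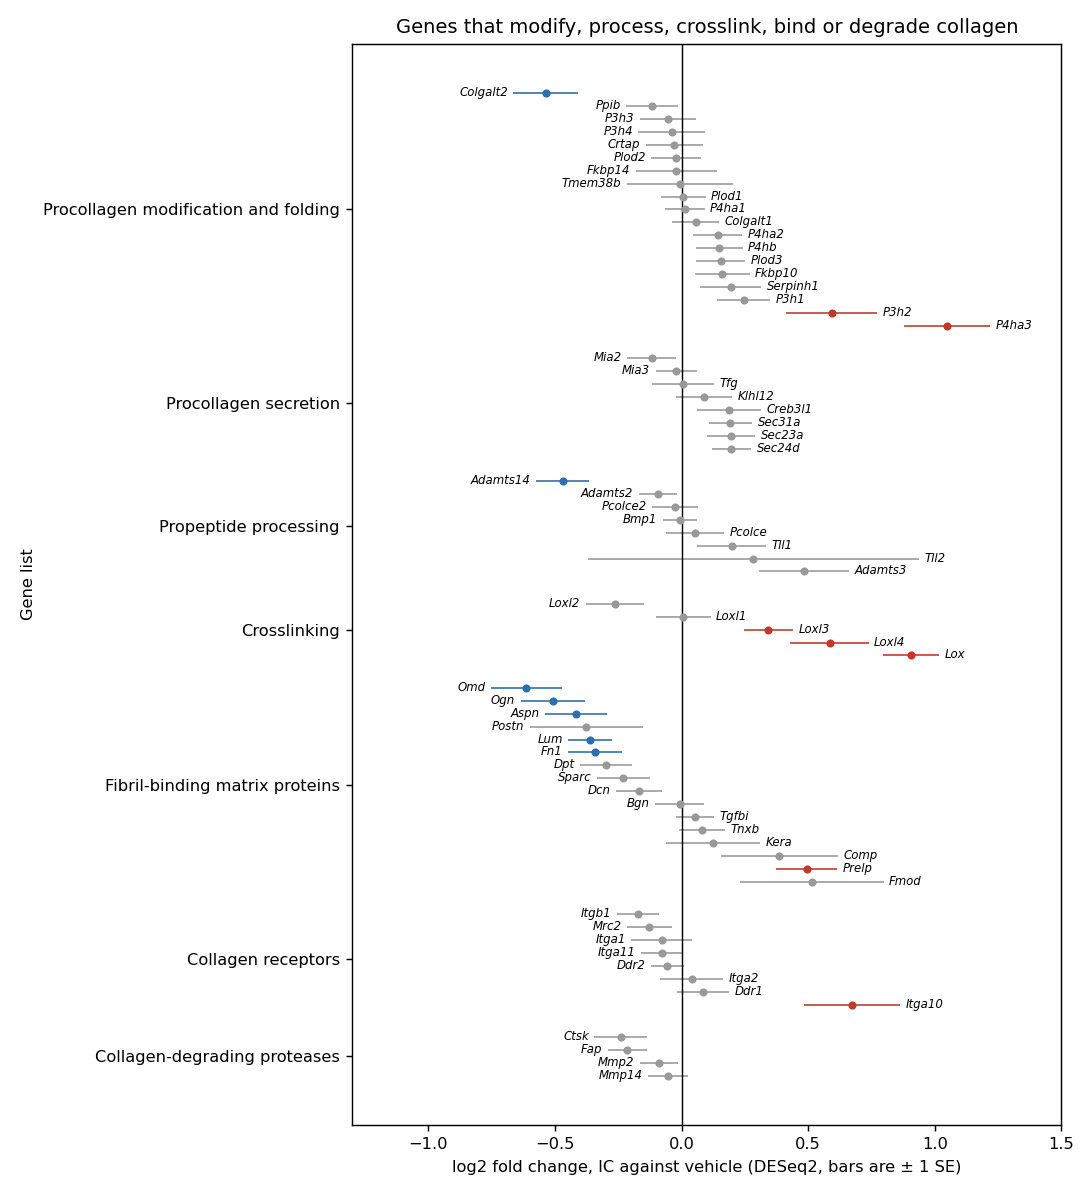
Log2 fold change of IC against vehicle, with its standard error, for the 68 tested genes of the collagen lists, grouped by role, with DESeq2 calls marked. P4ha3 at 1.05 and Lox at 0.91 are the highest called genes, and Omd at −0.61 is the lowest.

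Among 8 propeptide processing genes, Adamts14, which removes the amino-terminal propeptide, fell by 0.47 on the log2 scale (DESeq2 adjusted p = 0.000924, called in all 6 fits without 1 library). Bmp1, the carboxy-terminal proteinase, was at −0.0066 on that scale. Of 16 proteins that bind fibrils, 1 rose and 5 fell. The small leucine-rich proteoglycans Omd (log2 fold change −0.61, DESeq2 adjusted p = 0.0013), Lum (−0.36, 0.0025) and Ogn (−0.51, 0.00525) were lower and Prelp (0.49, 0.0039) was higher. Without 1 library, the calls of Omd held in 6 fits of 6, of Lum in 5, of Prelp in 3 and of Ogn in 2. Of 8 tested receptors, Itga10, an integrin chain that binds collagen, rose by 0.67 on the log2 scale (DESeq2 adjusted p = 0.0208, called in 2 of 6 fits without 1 library). The discoidin receptors Ddr1 and Ddr2 were at 0.09 and −0.06 on that scale. None of the 4 tested collagen-degrading proteases was called.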

How the data were processed

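Bulk RNA-seq of sorted synovial fibroblasts was analysed in 3 IC and 3 vehicle libraries, grouped by sample title. The deposited values are raw counts per gene, which the authors made from paired reads by trimming (Trim Galore), alignment to mm10 (HISAT2) and featureCounts, with FastQC for quality. Versions, gene annotation and the use of strand are not given in the sources used here, so overlapping genes are uncertain, and the labels and methods name different library kits.

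Testing covered the 19925 genes that reached 10 counts in 3 or more libraries, by the DESeq2 Wald test (version 1.42.0, R 4.3.3, default size factors, no covariate), with calls at 0.05 after Benjamini-Hochberg adjustment, since the methods name DESeq2. The edgeR quasi-likelihood test (4.0.16) was set beside it. Both were tested on simulated data. The methods also name sva without settings, and 1 surrogate variable (sva 3.50.0) was an alternative. Other alternatives were limma-voom (limma 3.58.1), other size factors and filters, a replicate block, and leaving out each library. edgeR without each library and union exon lengths were chosen after seeing the data. Fold changes are unshrunken. Normalized counts are counts divided by the DESeq2 size factor, and levels per kb use the longest coding transcript of GENCODE M21. Coordinates are from GENCODE M21 on GRCm38, the assembly of mm10, in which all 42 symbols were found.

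Named genes were the called members, the 10 members with the highest levels, the members of each chain ratio, and in each pathway list at most 4 called genes with the smallest adjusted p. Other genes named were chosen after their values were seen. They were Gm42418, Matn3, Col6a5, Col2a1, Col14a1, Col18a1, Col20a1, Col7a1, Col25a1, Col26a1, Col28a1 and uncalled pathway genes. Col6a4, Col13a1, Col17a1, Col22a1, Col24a1 and Col27a1 were also chosen so. Col9a1 was named as the collagen chain gene left out by the count rule, and genes that overlap members by their position. The members and lists were chosen with earlier results of these data known. Depth was 40114331 to 56714304 counts per library.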

Additional observations from a re-analysis of the deposited data

How the results depend on the processing

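The number of called collagen genes depended on the test. It was 6 with DESeq2, 0 with edgeR and 1 with limma-voom, beside 419, 37 and 62 of all tested genes and 14, 2 and 2 of the pathway genes. It was 6 with TMM size factors, without a count filter and with a mean of at least 100, 7 with total-count size factors, 5 with independent filtering off and 4 with 1 surrogate variable (Col12a1, Col4a5, Col6a6 and Col2a1). The share of all tested genes called under these settings is not given beside these counts, so they describe the members only. Leaving out 1 library gave 3 to 13 called collagen genes (3 without IC replicate 2 or vehicle replicate 3, 13 without vehicle replicate 1), 282 to 671 called genes in all and 6 to 14 pathway genes, and in edgeR 0 to 3 collagen genes. Fits without 1 library rest on fewer samples, and for the other settings the cause was not tested. With the replicate number as a block, 5 collagen genes were called (2 higher and 3 lower), beside 320 of all genes. Same-numbered libraries did not deviate together (correlations −0.092, −0.16 and 0.025 over 13435 genes), so the numbers were not taken as pairs.

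Reversals of direction concerned genes that did not pass. Under 1 surrogate variable Col14a1 was at 0.019, Col6a2 at 0.0067 and Col6a4 at −0.28. Col22a1 was at −0.0001 in edgeR, −0.033 in limma-voom, −0.0013 with a mean of at least 100, −0.011 with the block and −0.051 with 1 surrogate variable, and Col25a1 at 0.14 in limma-voom and 0.25 with the block. Without 1 library the log2 fold change ran from −0.022 to 0.18 for Col11a1, −0.019 to 0.47 for Col13a1, −0.10 to 0.029 for Col14a1, −0.31 to 0.84 for Col17a1, −0.20 to 0.19 for Col22a1, −0.54 to 0.37 for Col24a1, −1.39 to 0.60 for Col25a1, −0.083 to 0.026 for Col27a1, −0.38 to 0.15 for Col28a1, −0.14 to 0.15 for Col4a1, −0.10 to 0.16 for Col4a2, −0.26 to 0.014 for Col6a2, −0.078 to 0.16 for Col6a3 and −0.36 to 0.60 for Col6a4. For the ratios the log2 difference ran from −0.013 to 0.029 for Col1a1 to Col1a2, −0.20 to 0.0014 for Col11a1 to Col11a2, −0.30 to 0.11 for Col8a1 to Col8a2, −0.26 to 0.049 for Col4a3 to Col4a4 and −0.081 to 0.38 for Col4a5 to Col4a6. Genes with under 100 mean counts limit what this depth can show.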
